A study of Canis lupus familiaris with 7 samples.

Results

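Translation initiation factors are the proteins that assemble a ribosome on a messenger RNA and place it at the start codon. They were read here in the left ventricle of dogs on a low-salt diet and of control dogs. Their members were all probe sets (each a cluster of short probes that together read 1 transcript) with 1 gene symbol in the platform annotation that starts with EIF and a factor number from 1 to 6, without the EIF2AK kinases. This gave 44 of the 15115 genes named on the array, read by 106 of its 42924 probe sets, and 92 of these, for 42 genes, passed a filter that removed the dimmest 33.3% of all probe sets by their mean over all arrays. EIF4E1B and EIF4E3 were each read by 1 probe set, and that one was too dim to be tested. EIF3C, EIF4A1, EIF4EBP3 and EIF4G1 had no member probe set, so nothing is said of them here.

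The low-salt group was 4 arrays of left ventricle from adult male mongrel dogs of 25 to 28 kg fed 0.5% sodium chloride for 2 weeks, numbered 1 to 4. The control group was 3 arrays of left ventricle from male dogs, numbered 1, 3 and 4, for which no diet, weight or age is recorded in the sources used here. The diet was given to 10 dogs according to the study's design, which counts 4 of them in its test, and it is silent on pooling of RNA. No genetic change or drug is named for either group. Since the labels do not tie each array to its own animal, the p-values reflect how far these arrays scatter, and part of that scatter may be technical. The question was which heart transcripts differ when dietary salt is low.

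Initiation starts when eIF1, eIF1A and the many-subunit eIF3 bind the small ribosomal subunit and eIF2 brings the initiator tRNA, while eIF2B recharges eIF2 with GTP. The cap-binding protein eIF4E, the scaffold eIF4G and the RNA helicase eIF4A then load the messenger RNA, and the eIF4E-binding proteins block that step until the kinase mTORC1 phosphorylates them. In the heart these factors are known for setting the rate of protein synthesis, on which the growth of heart muscle cells depends. Protein phosphorylation, the main control of eIF2 and the eIF4E-binding proteins, is not seen by an RNA array.

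The small number of arrays limits the precision. Values are log2(deposited intensity + 16) after quantile normalization, and changes are low salt minus control on that scale, which understates those of dim probe sets. Heart muscle cell markers were bright in both groups: 11 of 12 were tested, with a summed deposited intensity of 83301 to 112442 in low salt and 83846 to 131473 in controls. Before normalization, low-salt 3 and control 4 had the highest medians, 5.91 and 6.07. Controls 1 and 3 were at 5.80 and 5.57, and low-salt 1, 2 and 4 lay below every control, at 5.14 to 5.24. Low-salt 3 and control 4 also had the lowest array weights, at 0.679 and 0.596. The deviations of these 2 arrays from their group means correlated at 0.434 across probe sets. The GAPDH 3' to 5' signal ratio, a measure of RNA integrity, was 2.03 to 2.41 in low salt and 2.43 to 2.78 in controls (p = 0.0571 by a two-sided exact permutation test, which with 35 splits can go no lower), and a second GAPDH pair gave 14.5 to 22.6 in low salt and 22.7 to 40.9 in controls with the same p. The actin ratio overlapped, at 0.354 to 1.11 in low salt and 0.679 to 1.10 in controls (exact permutation p = 0.4), and the part of RNA integrity in the results was not tested.

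Across the members, 1 probe set passed and it was lower in low salt. A probe set of EIF1AX, which encodes eIF1A, the factor that helps the small subunit scan for the start codon, fell 9.23-fold on the normalized scale, a size set in part by the offset, with 16.5-fold at an offset of 1 and 4.69-fold at an offset of 64. Of the 92 tested members, 7 others were higher and 3 others lower at an unadjusted p under 0.05. The higher ones included a dim probe set of each of the eIF4E-binding protein genes among the members, EIF4EBP1 and EIF4EBP2. The brighter EIF4EBP1 probe set differed by 0.15. The groups did not overlap in 11 members, of which 7 were higher and 4 lower in low salt, and 9 of the 11 did not overlap in deposited intensity either.

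Read against the whole array, these shares were close to the background. By limma's moderated test with Benjamini-Hochberg adjustment over 28616 probe sets, 0.346% of all tested probe sets passed an adjusted p of 0.05 (0.308% lower and 0.0384% higher), and 1 of 92 members did. At an unadjusted p under 0.05, 5.27% of all tested probe sets were higher and 5.78% lower, and the members gave 7 and 4. Groups did not overlap, with low salt higher, in 5.13% of all tested probe sets and, with low salt lower, in 5.68%, against 7 and 4 of 92 members.

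With quantile normalization, the members as a whole differed little between the groups. Their median change was 0.11, against 0.04 over all tested probe sets, and their quartiles were -0.07 and 0.32, against -0.25 and 0.31. A change above 0 was seen in 59 of the 92, or 64.1%, against 53.8% of all tested probe sets. The scaling moved both medians, and in both other scalings the members' median lay further above that of all tested probe sets. With values as deposited the medians were 0.11 for members and -0.18 for all tested probe sets. With array medians set equal they were 0.54 and 0.26. At an unadjusted p under 0.05, values as deposited gave 7 higher and 5 lower members, where 2.7% of all tested probe sets were higher and 10.9% lower. Array medians set equal gave 20 higher and 2 lower members, where 9.92% of all were higher and 3.81% lower. Leaving out control 4 lowered the median of the members to 0.07, with 0.04 over all.

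**Figure D1:**
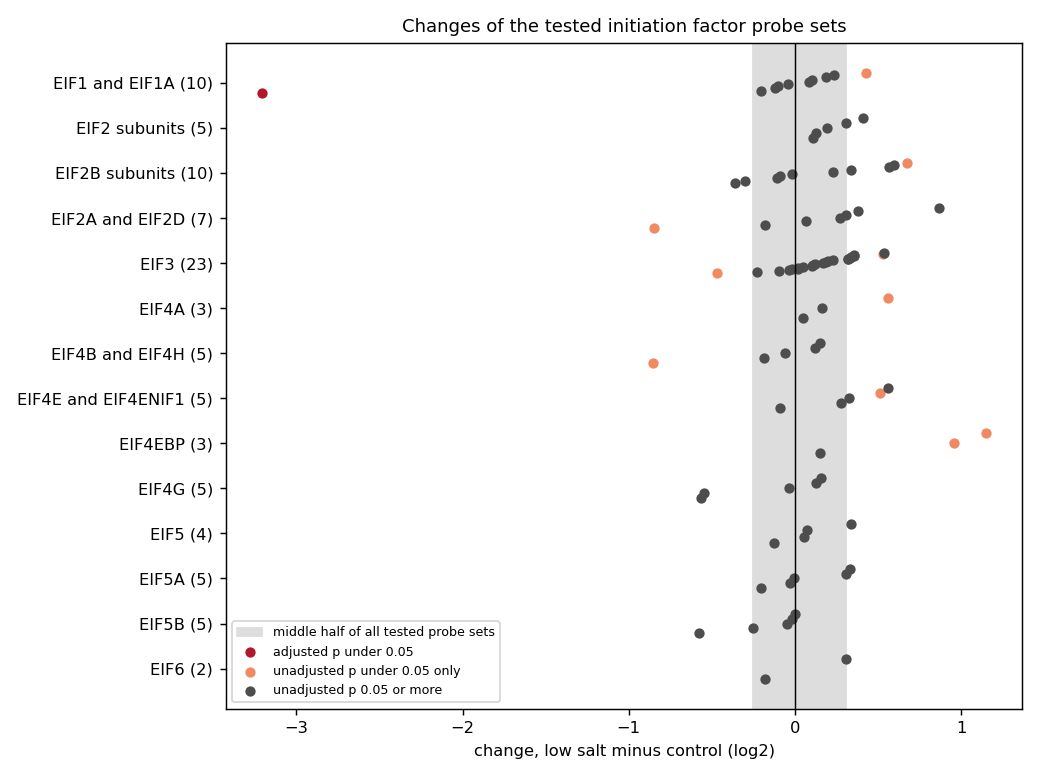
Change of each of the 92 tested probe sets (x axis, low salt minus control, log2) by factor (rows, with the number of tested probe sets), coloured by limma p, with the range between the quartiles of all tested probe sets shaded. One EIF1AX probe set lies at -3.21, and the others run from -0.85 to 1.15.

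EIF1AX is read by 3 probe sets, and they gave different results. Probe set CfaAffx.20307.1.S1_at had deposited intensities of 24.2, 14.5, 8.6 and 14.3 in low-salt 1 to 4, against 940.4, 356.4 and 107.2 in controls 1, 3 and 4. All low-salt arrays were low, and the controls were spread over a wide range without reaching down to them. On the normalized scale it was 5.16 ± 0.52 (SD, n = 4) in low salt and 8.37 ± 1.70 (SD, n = 3) in controls, a change of -3.21 ± 0.59 (SE, limma adjusted p = 0.0411).

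The second EIF1AX probe set, Cfa.18497.1.S1_at, had deposited intensities of 121.5, 124.1, 118.7 and 92.1 in low salt, against 133.4, 135.8 and 108.0 in controls. The groups overlapped, and the normalized change was 0.10 ± 0.27 (SE, adjusted p = 0.921, 95% interval -0.48 to 0.69). The third, Cfa.18497.1.S1_s_at, had deposited intensities of 227.4, 218.9, 185.0 and 120.0 in low salt, against 236.7, 206.3 and 228.4 in controls, with a normalized change of -0.21 ± 0.25 (SE, adjusted p = 0.805, 95% interval -0.74 to 0.33). Both intervals leave out a 2-fold fall. The names of these 2 probe sets carry the same cluster number, 18497.1, so they are not taken as independent readings. Probe sequences were not at hand, so the targets of the 3 probe sets could not be compared. The sign of the second turned with values as deposited and that of the third with array medians set equal. The mean of the 3 probe sets differed by -1.10 ± 0.29 (SE, adjusted p = 0.294 over genes), so EIF1AX did not pass as a gene.

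**Figure D2:**
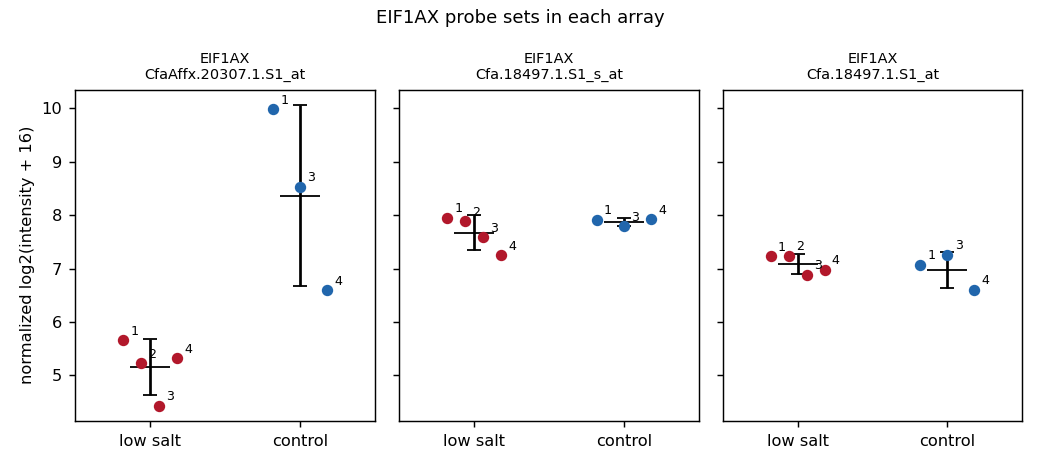
Normalized log2(intensity + 16) of the 3 EIF1AX probe sets in each array (points, numbered by replicate), with mean and SD bars for low salt (n = 4) and control (n = 3); heights are not comparable between probe sets. In the left panel the low-salt arrays average 5.16 and the controls 8.37, and in the other panels the groups overlap.

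The spread of the controls was a feature of the EIF1AX probe set that fell. Its control SD of 1.70 was larger than that of the other 91 members, and 0.206% of all tested probe sets (59 in number) had a larger one. The call rested on which arrays were in the fit: the change was -2.41 without control 1 (adjusted p = 0.189) and -4.18 without control 4 (adjusted p = 0.000279), and it passed in 1 of the 7 fits that leave out 1 array. Without control 4 and low-salt 3 together, a setting chosen after seeing the data, it was -4.05 (adjusted p = 0.000354). Its size also depended on the offset, with -4.05 at an offset of 1 and -2.23 at an offset of 64, neither of which passed.

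The EIF1AX probe set that fell has a name that starts with CfaAffx, as did 68 of the 88 probe sets that passed as lower. Probe sets of this name type carried no sequence accession in the annotation for any member. They made up 47.2% of all tested probe sets, 43.5% of the tested members, 77.3% of those that passed as lower and 45.5% of the 11 that passed as higher. Over all tested probe sets the median change was 0.04 for this type and 0.03 for the others.

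The other genes grouped here by name with EIF1AX did not pass. EIF1, whose product guards start codon choice, had 5 tested probe sets with changes from -0.12 to 0.43. The one at the top of that range, Cfa.3218.1.A2_a_at, had normalized values of 11.46, 11.00, 11.48 and 11.46 in low salt, against 10.62, 11.01 and 11.14 in controls, a change of 0.43 ± 0.17 (SE, adjusted p = 0.384). Low-salt 2 lay among the controls and the other low-salt arrays above them, while in deposited intensity the groups did not overlap. EIF1B, its close relative, differed by 0.24, and EIF1AD by -0.04, both with 1 tested probe set. Probe sets ending in s_at or x_at can bind related transcripts, so EIF1 and EIF1B, which are near copies, cannot be told apart with certainty.

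The subunits of eIF2, the carrier of the initiator tRNA, all had changes above 0 and none passed. Their 5 probe sets ran from 0.11 to 0.41. EIF2S1, the α subunit that stress kinases phosphorylate, had normalized values of 10.02, 10.31, 10.41 and 10.83 in low salt, against 10.27, 9.76 and 9.92 in controls. The groups overlapped through control 1, and the change was 0.41 ± 0.20 (SE, adjusted p = 0.489). EIF2S2, the β subunit, differed by 0.11, and the 3 probe sets of the γ subunit EIF2S3 by 0.13, 0.20 and 0.31.

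The eIF2B complex, which exchanges GDP for GTP on eIF2, gave 5 tested probe sets above 0 and 5 below. A probe set of EIF2B1, the α subunit, had normalized values of 7.09, 6.95, 6.97 and 7.64 in low salt, against 6.25, 6.45 and 6.76 in controls. The groups did not overlap on this scale, with a change of 0.68 ± 0.29 (SE, adjusted p = 0.405). In the deposited intensities they did, since control 4 stood at 117.8, above low-salt 1 at 106.8 and low-salt 2 at 94.99. Its other tested probe set differed by -0.02, and one too dim to be tested by 0.68. EIF2B3, a part of the catalytic core, had changes of 0.34 and 0.57, and in the first of these every low-salt value lay above every control value. EIF2B2 differed by 0.60 and EIF2B5, the catalytic subunit, by 0.23, while the 4 probe sets of EIF2B4 ran from -0.36 to -0.09. Among the remaining eIF2B probe sets, untested for their dim signal, the change was 0.13 for EIF2B2, 0.03 and -0.42 for EIF2B3 and -0.09 for EIF2B5.

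The factors that can deliver tRNA in place of eIF2 split by probe set. EIF2D, known for binding initiator tRNA without GTP, has 2 probe sets designed from 1 sequence accession with changes of opposite sign. Cfa.2087.1.A1_at had normalized values of 7.60, 7.86, 8.32 and 8.33 in low salt, against 9.67, 8.86 and 8.09 in controls, a change of -0.85 ± 0.33 (SE, adjusted p = 0.377). Control 4 lay within the low-salt range, and the change was -0.45 without control 1 and -1.26 without control 4. Cfa.2087.1.A1_s_at, named after its values were seen, had normalized values of 6.79, 7.32, 6.67 and 7.03 in low salt, against 6.21, 7.28 and 4.78 in controls. Its change was 0.86 ± 0.46 (SE, adjusted p = 0.52), and 0.22 without control 4, the lowest array. The further EIF2D probe sets differed by -0.18 and 0.07, and the 3 of EIF2A, a factor that acts on some non-AUG starts, by 0.27, 0.31 and 0.38.

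For eIF3, the scaffold that bridges ribosome and messenger RNA, 12 genes were read by 23 tested probe sets, and 18 had a change above 0. Their median was 0.17, with a range from -0.47 to 0.53. EIF3E had the smallest p, from a probe set at 10.62, 10.26, 10.57 and 9.94 in low salt, against 11.04, 10.81 and 10.60 in controls. Low-salt 1 lay just above control 4, the change was -0.47 ± 0.19 (SE, adjusted p = 0.393), and its sign turned to 0.10 with array medians set equal. The other EIF3E probe set differed by -0.04. For EIF3F the probe set CfaAffx.11227.1.S1_at stood at 8.03, 8.57, 8.18 and 8.42 in low salt, against 7.87, 7.76 and 7.69 in controls. It showed no overlap, with a change of 0.53 ± 0.23 (SE, adjusted p = 0.416), and the other EIF3F probe sets differed by -0.10 and 0.20. The core RNA-binding subunit EIF3A had changes of -0.23 and 0.53, EIF3B 0.32 and 0.34, EIF3D 0.33, EIF3I 0.23, 0.35 and 0.36 and EIF3L -0.02 and 0.32. EIF3G, EIF3H, EIF3J, EIF3K and EIF3M stayed between 0.02 and 0.19.

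The eIF4A helicases were read through EIF4A2 and EIF4A3 alone, in 3 tested probe sets, all with a change above 0. EIF4A3, better known as a core protein of the exon junction complex left by splicing, stood at 8.92, 8.72, 8.96 and 9.11 in low salt, against 8.09, 8.50 and 8.51 in controls. Every low-salt array was above every control, with a change of 0.56 ± 0.21 (SE, adjusted p = 0.362), and the other EIF4A3 probe set differed by 0.05. EIF4A2, an RNA helicase of the cap complex, differed by 0.17 ± 0.13 (SE).

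EIF4B, which stimulates the eIF4A helicase, had the second smallest p among the members that were lower. Its probe set CfaAffx.11549.1.S1_at stood at 5.93, 5.90, 5.88 and 5.86 in low salt, against 6.88, 6.65 and 6.71 in controls. On this scale the low-salt arrays lay within a narrow band below every control. In deposited intensity they were spread more widely but still below every control, with 32.3, 31.3, 59.4 and 27.0 against 116.4, 82.5 and 114.4. The change of -0.85 ± 0.28 (SE) had an adjusted p of 0.294 and ran from -0.91 to -0.79 with 1 array left out. It was -1.07 at an offset of 1, -0.53 at an offset of 64 and -1.19 with values as deposited. The other EIF4B probe sets differed by 0.12 and 0.15, and those of EIF4H, a related helper, by -0.19 and -0.06.

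Of the cap-binding proteins, EIF4E had changes of -0.09 and 0.27 and EIF4E2, which binds caps without eIF4G, 0.32. EIF4ENIF1, known as 4E-T, carries eIF4E into the nucleus and helps silence messenger RNAs. Its probe set of smallest p stood at 10.11, 10.04, 10.42 and 10.51 in low salt, against 9.37, 9.89 and 10.01 in controls. The groups did not overlap, though low-salt 2 and control 4 lay close, and the change was 0.51 ± 0.20 (SE, adjusted p = 0.373). Another probe set of the gene differed by 0.56 ± 0.43 (SE), so both tested ones pointed the same way.

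**Figure D3:**
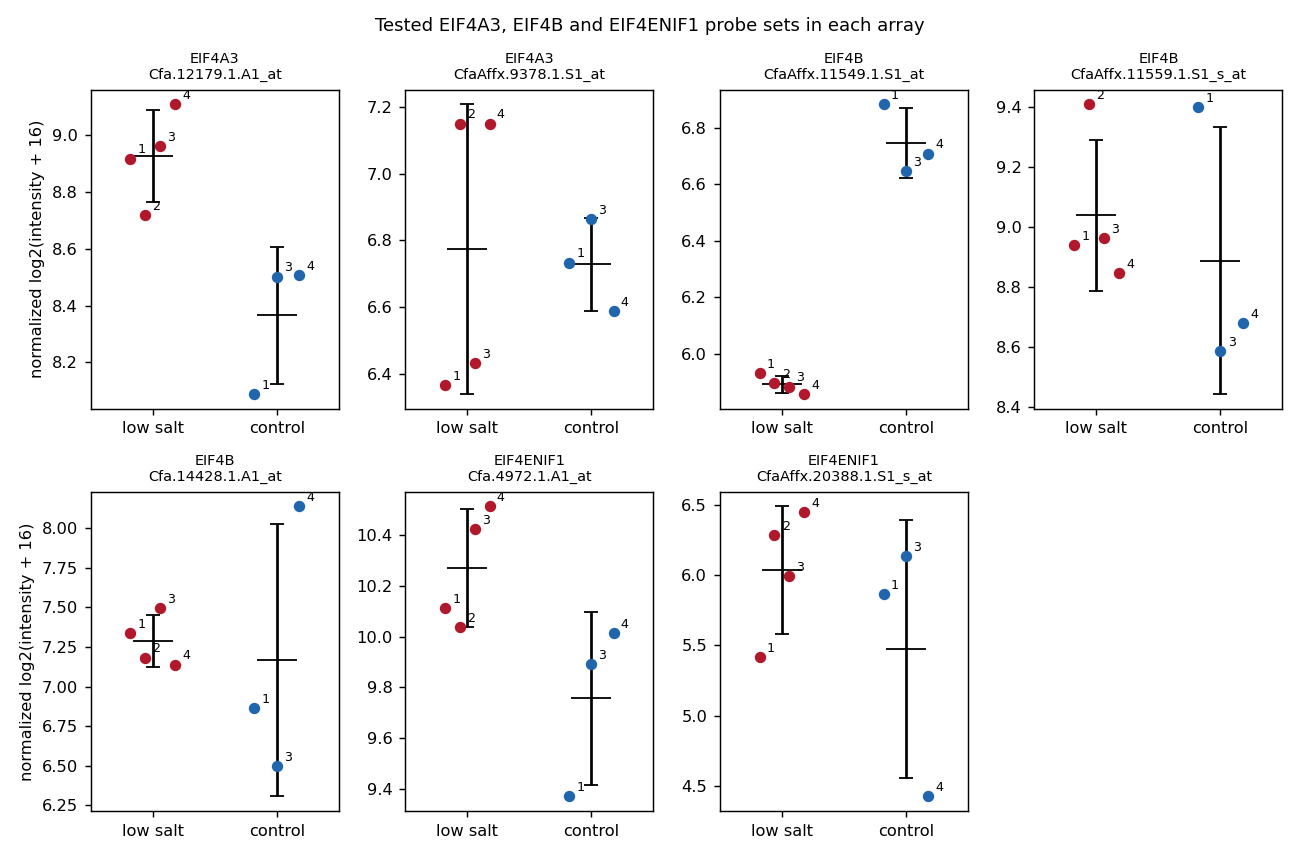
Normalized log2(intensity + 16) of every tested probe set of EIF4A3, EIF4B and EIF4ENIF1 in each array (points, numbered by replicate), with mean and SD bars for low salt (n = 4) and control (n = 3); each panel has its own axis. The first EIF4A3, first EIF4B and first EIF4ENIF1 panels show no overlap, with changes of 0.56, -0.85 and 0.51, and the other panels overlap.

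The eIF4E-binding proteins, which hold eIF4E away from eIF4G, had the highest family median, 0.96 over 3 tested probe sets, and none passed. EIF4EBP1 was read by CfaAffx.10222.1.S1_at at 5.99, 6.46, 5.95 and 6.13 in low salt, against 4.92, 5.46 and 4.57 in controls. All low-salt arrays were above all controls, also in deposited intensity, where they were 34.5 to 62.8 against 13.4 to 28.0. The change was 1.15 ± 0.34 (SE, adjusted p = 0.247) and ran from 0.94 to 1.39 with 1 array left out. The other EIF4EBP1 probe set was brighter, with deposited intensities of 108.9 to 146.9 in low salt and 113.4 to 148.6 in controls. It differed by 0.15 ± 0.26 (SE, 95% interval -0.40 to 0.71).

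EIF4EBP2 was read at 6.33, 6.23, 5.47 and 5.78 in low salt, against 4.51, 5.49 and 4.99 in controls. Low-salt 3 was level with control 3, and the change was 0.96 ± 0.37 (SE, adjusted p = 0.372). A second probe set, too dim to be tested, stood at 4.90, 4.64, 4.85 and 5.08 in low salt, against 4.28, 4.22 and 4.33 in controls. It did not overlap on this scale, but its deposited intensities did, at 5.9 to 18.6 in low salt and 2.4 to 7.3 in controls. With the mean of all probe sets of a gene, EIF4EBP1 differed by 0.65 ± 0.23 (SE, adjusted p = 0.39) and EIF4EBP2 by 0.77 ± 0.22 (SE, adjusted p = 0.312). These were the 2 member genes higher at an unadjusted p under 0.05 by that measure, with EIF1AX the 1 lower, where 10.3% of all 11381 genes lay under it in either direction.

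**Figure D4:**
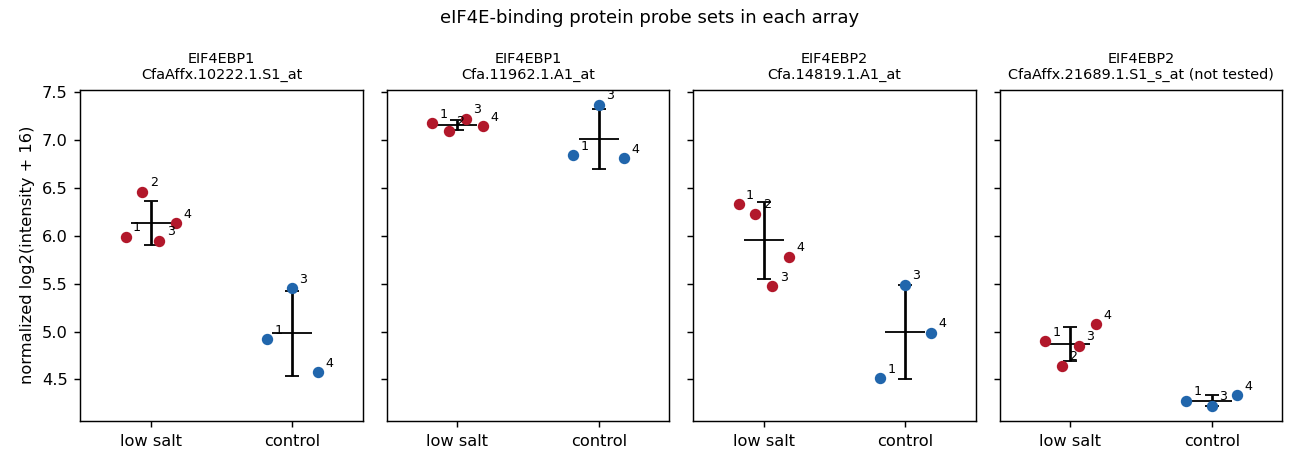
Normalized log2(intensity + 16) of the EIF4EBP1 and EIF4EBP2 probe sets in each array (points, numbered by replicate), with mean and SD bars for low salt (n = 4) and control (n = 3); heights are not comparable between probe sets. The low-salt arrays lie above the controls in the first and last panels, while in the second the change is 0.15.

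The eIF4G scaffolds were read through EIF4G2 and EIF4G3 alone, in 5 tested probe sets with changes from -0.57 to 0.16, and none passed. EIF4G2, a relative that works without the cap-binding protein, stood at 13.14, 13.14, 13.20 and 13.19 in low salt, against 13.10, 13.03 and 13.00 in controls. The groups did not overlap on this scale, but the change was 0.13 ± 0.09 (SE, adjusted p = 0.641), and the deposited intensities overlapped. EIF4G3 had 2 probe sets at -0.57 and -0.55 and 2 at -0.04 and 0.16, and at -0.57 every low-salt value was below every control. The one of smallest p stood at 6.01, 6.59, 5.78 and 5.69 in low salt, against 6.69, 6.64 and 6.37 in controls, where low-salt 2 lay above control 4 (-0.55 ± 0.31 SE, adjusted p = 0.554).

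The late factors did not pass either. The GTPase activator EIF5 had 4 tested probe sets from -0.13 to 0.34. The one of smallest p stood at 7.97, 7.84, 7.49 and 7.41 in low salt, against 7.08, 7.25 and 7.69 in controls, with control 4 inside the low-salt range (0.34 ± 0.26 SE, adjusted p = 0.669). EIF5B, which joins the large subunit, had 5 tested probe sets from -0.58 to 0.00, the lowest at 5.11, 4.53, 5.62 and 5.44 in low salt, against 5.79, 5.33 and 6.13 in controls (-0.58 ± 0.38 SE, adjusted p = 0.607). Another, at -0.25, had every low-salt value below every control.

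EIF5A carries the modified amino acid hypusine, and it and EIF5A2 ran from -0.20 to 0.33. The probe set of smallest p was one of EIF5A2, at 5.92, 5.49, 5.97 and 5.57 in low salt, against 4.995, 5.64 and 5.65 in controls (0.31 ± 0.34 SE, adjusted p = 0.775), and its sign turned with values as deposited. EIF6, which keeps the large subunit from joining too early, stood at 6.91, 6.84, 7.21 and 6.58 in low salt, against 6.76, 6.26 and 6.71 in controls (0.31 ± 0.28 SE, adjusted p = 0.727), and its other probe set differed by -0.18.

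Probe sets of 1 gene often went different ways. Of the 29 member genes with more than 1 tested probe set, 11 had all changes above 0, 3 all below, and 15 both signs. The median range of changes within a gene was 0.43. The widest ranges were 3.31 in EIF1AX, 1.71 in EIF2D 1.005 in EIF4B and 0.998 in EIF4EBP1, and the narrowest were 0.05 in EIF4ENIF1 and 0.02 in EIF3B. No member gene had more than 1 tested probe set at an unadjusted p under 0.05. With the brightest probe set standing for each gene, 0 of 42 member genes passed by limma, against 0.185% of all genes (0.0351% higher and 0.149% lower), and 28 had a change above 0, against 56% of all genes. With the mean of the probe sets 0 passed, against 0.0264% of all genes, and 34 had a change above 0, against 56.2%.

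**Figure D5:**
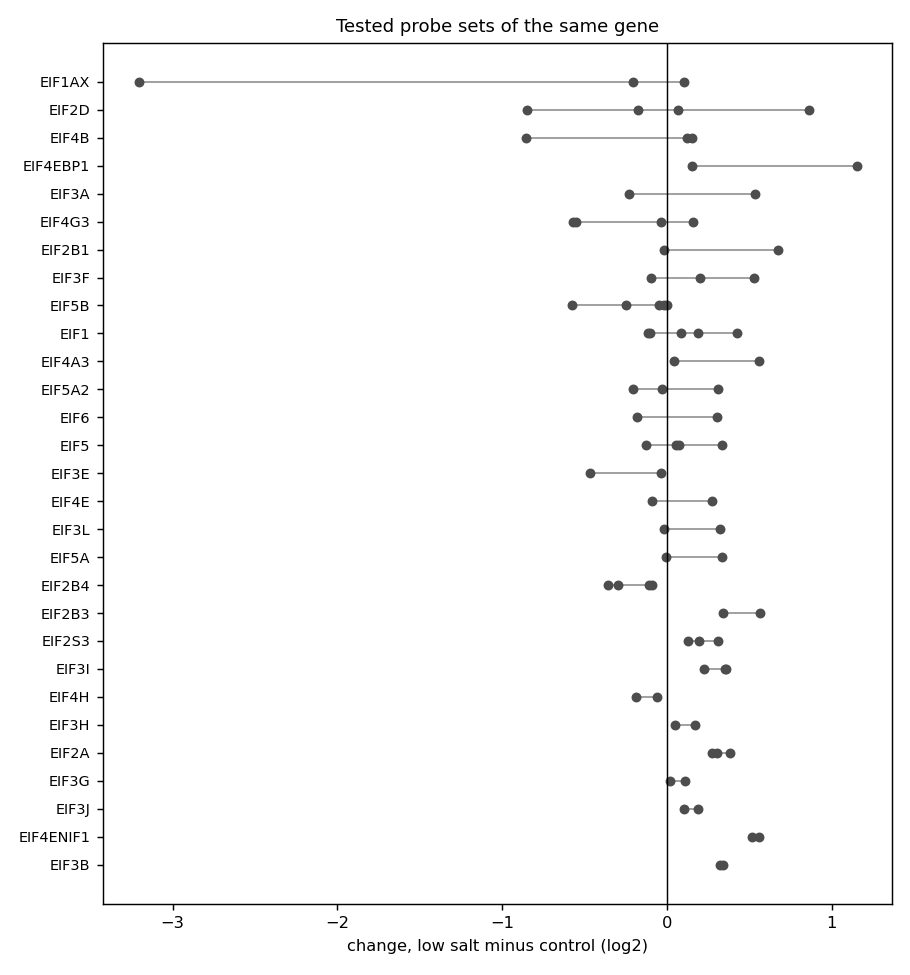
Change of each tested probe set (points, low salt minus control, log2) for the 29 genes with more than 1, sorted by the range within the gene (lines). EIF1AX spans 3.31 and EIF2D 1.71, and 15 genes lie on both sides of 0.

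The study's own threshold combined a 2-fold change with an unadjusted p of 0.05, and 2 members passed it by limma, against 4.4% of all tested probe sets. They were the EIF1AX probe set and EIF4EBP1 CfaAffx.10222.1.S1_at. EIF4EBP1 no longer reached a 2-fold change with values as deposited (0.84), with an offset of 64 (0.57) or without control 4 (0.94). The methods' t-test gave 2 members at that threshold, against 3.04% of all tested probe sets, and 0 members after Benjamini-Hochberg adjustment, against 4 of all tested probe sets. At an unadjusted p under 0.05 it gave 11 of 92 members, against 10% of all tested probe sets.

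Around the initiation factors, the lists of related genes given below showed few differences, and 0 of their tested genes passed an adjusted p of 0.05 by limma. Ribosomal protein genes were not tested in these lists, so nothing is said of them here. Each gene is given by its brightest tested probe set, for which 5.61% of all genes were higher and 4.92% lower at an unadjusted p under 0.05, and for which groups did not overlap in 5.66% with low salt higher and 4.89% with low salt lower. Of 8 tested elongation factors 1 was higher and 0 lower (median 0.02), and of 8 termination and recycling factors 0 were either (median 0.16). Of 7 tested eIF2 kinases and phosphatase subunits 0 were higher and 1 lower (median 0.02), and of 6 integrated stress response targets, genes switched on through phosphorylated eIF2, 1 was higher and 0 lower (median 0.20). Poly(A) and cap partners (13 tested, median 0.05), mTORC1 and MNK kinase genes (7 tested, median 0.30) and mitochondrial initiation and elongation factors (8 tested, median 0.05) gave 0 in either direction. The groups did not overlap in 1 termination and recycling factor and in 1 mTORC1 and MNK gene, both higher in low salt.

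The 3 genes behind those counts are named here after their values were seen, and in each of them the groups overlapped. EEFSEC, the elongation factor for selenocysteine, differed by 1.11 ± 0.39 (SE). EIF2AK2, the kinase PKR, differed by -1.12 ± 0.43 (SE), and VLDLR, a lipoprotein receptor, by 0.66 ± 0.26 (SE), with adjusted p over genes from 0.372 to 0.432 by limma.

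Markers of other cells were measured beside these values. All 7 macrophage markers had a change above 0, with a summed deposited intensity of 1745 to 2312 in low salt and 1326 to 1916 in controls, which overlap. The sums overlapped as well for endothelial markers (5463.7 to 7190.4 in low salt, 5316 to 7869 in controls), fibroblast markers (11690.2 to 16118 in low salt, 10080.5 to 16871 in controls), and smooth muscle markers (1004 to 1487 in low salt, 768 to 1485 in controls). They did so too for T and B cell markers (55.1 to 273 in low salt, 156 to 368 in controls), adipocyte markers (1671 to 3914 in low salt, 911 to 3031 in controls), erythroid markers (27.5 to 103 in low salt, 47.5 to 103 in controls) and atrial markers (3387 to 5778 in low salt, 2683 to 7147 in controls). Single markers named after their values were seen stood apart more than these sums. The macrophage gene C1QB differed by 1.01 and the smooth muscle gene CNN1 by 1.19, both without overlap. CNN1 was dim, with median deposited intensities of 33.4 in low salt and 12.4 in controls. Of the 6 smooth muscle markers tested, 2 had a change above 0, and the median change was -0.10. The atrial gene MYL4 differed by -2.14 beside 0.39 for MYL7. Adjusted p over genes ran from 0.194 to 0.537 by limma for these single markers. No value in the files is 0. The part of these cells in the members' values was not tested, and fewer cells of a type and less RNA per cell cannot be told apart in tissue RNA.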

How the data were processed

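Total RNA of dog left ventricle was extracted with Trizol, labelled with biotin by the Affymetrix procedure and read on 1-colour arrays, per the labels' protocols. The authors deposited 1 linear intensity for each probe set and array, made with GCOS per the submitters' processing notes. The version, probe summary and genome build are not given in the sources used. Each array had a 2% trimmed mean of 150 to 150.1, while the array medians differed by 0.93 on the log2 scale. Groups and replicate numbers came from the titles.

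From the deposited intensity, log2(value + 16) was quantile normalized, and 111 control probe sets and the dimmest 33.3% were left out. The remaining 28616 probe sets were tested with limma 3.58.1 (trend, R 4.3.3) and Benjamini-Hochberg adjustment. The fit was also run on simulated data with independent noise and the same spread in both groups. The EIF1AX probe set that passed had unequal spread, so that run does not bear on its call. Alternatives were other offsets, scalings, filters, weights and variance models, the ordinary t-test, single arrays left out and a replicate block. Gene numbers of 40 of the 44 genes were found in a RefSeq table (assembly UU_Cfam_GSD_1.0), and 4 genes by symbol only. It served for names, and no coordinates are given.

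The members and lists were chosen with earlier results of these data known. Given in full are all EIF1AX probe sets, members past an adjusted p of 0.05, the one of smallest p in each of 14 factor groups, and all probe sets of any gene with more than 1 at an unadjusted p under 0.05 (0 genes). Probe sets of EIF1, EIF2D, EIF3F, EIF4EBP2 and EIF4G2 were added to these after seeing their values. Other members are named with their changes. Same-numbered arrays of the 2 groups were checked for pairing (correlations of deviations 0.074, -0.264 and -0.18), so the numbers were not taken as pairs. Arrays correlated at 0.898 to 0.952 and no 2 held identical values.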

Additional observations from a re-analysis of the deposited data

Results flagged for a closer look

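Of 20 probe sets of the members described, 1 had a low-salt array far from the other 3. In EIF1 Cfa.3218.1.A2_a_at, low-salt 2 was at 11.00 and the other low-salt arrays lay between 11.46 and 11.48, a gap of 0.961 of the whole range against a critical value of 0.829. Chance gives a gap at or above that critical value in about 1 in 20 groups. A probe set left out of the tests for its dim signal, EIF4EBP2 CfaAffx.21689.1.S1_s_at, was above every control in all 4 low-salt arrays, with a change of 0.59. Of the 14 untested members this was the 1 with all low-salt values above the controls, and 0 had all below, where 3.84% of all 14308 untested probe sets lay above and 4.29% below.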

How the results depend on the processing

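The EIF1AX fall kept its direction in every setting and its call in 4 of 11: -3.51 with values as deposited, -3.08 with array medians set equal, -3.23 with array weights and -4.05 without control 4 and low-salt 3 together, the last chosen after seeing the data. It did not pass at -3.21 with a filter at the median of all probe sets (adjusted p = 0.0632) or no filter (0.105). The same change did not pass with no mean-variance trend (0.155) or with the ordinary t-test (0.414). Nor did it pass at -4.05 with an offset of 1 (0.0747), -2.23 with an offset of 64 (0.0697) or -3.23 with the replicate block (0.0763). Member calls then fell to 0, with 68, 27, 19, 4, 39, 76 and 27 calls over all probe sets in those 7 settings, against 99. With 1 array left out the fall ran from -4.18 to -2.41 and member calls from 0 to 1. Members higher at an unadjusted p under 0.05 numbered 3 to 8 and those lower 2 to 4 with 1 array left out (3 higher without low-salt 4, 4 higher and 2 lower without control 1, 2 lower without control 3), where 3.34% to 6.86% of all probe sets were higher and 3.85% to 6.75% lower. Setting array medians equal gave 20 and 2 (9.92% and 3.81% of all), and the replicate block gave 4 and 2 (2.56% and 3.69% of all) and changed no other call. The median change of the members was 0.54 with array medians set equal and ran from 0.070 to 0.15 with 1 array left out. Signs turned for EIF1AX Cfa.18497.1.S1_at (-0.13 with values as deposited, -0.017 without control 4 and low-salt 3, -0.087 without control 4, and up to 0.24 without control 3) and EIF1AX Cfa.18497.1.S1_s_at (0.16 with array medians set equal). They turned for EIF3E (0.10 with array medians set equal) and EIF5A2 (-0.10 with values as deposited) too, and for 0 of the other 16 probe sets. The causes were not tested. Dim signal limits the sizes of change: between offsets of 1 and 64 they moved from 1.84 to 0.57 in EIF4EBP1, 1.58 to 0.46 in EIF4EBP2, 1.23 to 0.48 in EIF2D Cfa.2087.1.A1_s_at, -1.07 to -0.53 in EIF4B, -0.71 to -0.33 in EIF4G3 and -0.97 to -0.27 in EIF5B.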
